A study of Mus musculus with 12 samples.

Results

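The genes described here are Aqp6, Slc5a1, Gnb3, Rtn4r, Plekhh1 and Rgcc, in 12 RNA libraries of mouse hearts. These 6 were chosen from the 27179 genes of the deposited table because their values were lower after transverse aortic constriction (TAC) than after sham surgery, so their difference between the surgeries is given as a description, with no test. TAC narrows the aorta and raises the pressure against which the left ventricle pumps. RNA was taken from hearts 1 week after surgery in mice kept on a diet with 10 kcal% fat, begun 4 days before surgery. The groups were TAC Balb/cJ, sham Balb/cJ, TAC Balb/cByJ and sham Balb/cByJ, with 3 libraries each. Balb/cByJ mice carry a deletion in Acads (short-chain acyl-CoA dehydrogenase of fatty acid oxidation), in both their TAC and their sham group, and no other alleles are named in the labels. The strains can also differ elsewhere in the genome, so a strain difference cannot be assigned to Acads. Ages and sexes are not used here, and no source used here says whether a library holds 1 animal.

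The genes belong to separate families. Aqp6 encodes an aquaporin of intracellular vesicles, known from acid-secreting cells of the kidney, which also conducts anions. Slc5a1 encodes SGLT1, the sodium-coupled glucose carrier of the intestine, which heart muscle also makes. Gnb3 encodes a beta subunit of heterotrimeric G proteins and is best known from cone photoreceptors. Rtn4r encodes the Nogo receptor, a lipid-anchored surface protein that binds Nogo (the product of Rtn4) and restrains axon growth. Plekhh1 encodes a protein with pleckstrin homology, MyTH4 and FERM domains, of a kind that links membranes to the cytoskeleton. Rgcc encodes a regulator of the cell cycle that binds the kinase Cdk1 and is abundant in capillary endothelial cells.

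Values are read counts scaled per library by the authors and rounded, called normalized values below, and library sums ran from 25161466 to 34157613. Counting error weighs most on Slc5a1, at 1 to 33, and on Plekhh1 in TAC Balb/cJ, at 31 to 59. Acads RNA was at 5613 to 6697 in TAC Balb/cByJ and 6234 to 6929 in sham Balb/cByJ libraries, against 5415 to 8670 in TAC Balb/cJ and 9033 to 10928 in sham Balb/cJ libraries, so its level alone does not mark the strain in every library. One library went against its strain label. Zhx2, which is known to be low in Balb/cJ, had 48 in the library labelled TAC Balb/cByJ 6, against 728 to 838 in the other 5 Balb/cByJ libraries and 21 to 47 in Balb/cJ. Dnah17 had 2 there, against 805 to 1019 in the same 5 libraries and 1 to 11 in Balb/cJ. For each of the 6 genes, the TAC and strain differences that use this library are followed by the value without it. This was not done for the median over the 6 genes, group means, the difference in TAC effect between the strains or fits with changed settings.

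Promoter sequence (250 bases before to 50 bases after a RefSeq start site, build GRCm38.p6) was at hand for 5 of the 6 genes. The RefSeq site is the deposited gene start for Plekhh1, Slc5a1 and Rgcc, but lies 200 bases upstream of it for Aqp6 and 64 bases upstream for Rtn4r, so those windows end before the deposited start. The sequences of 3 are printed 5′ to 3′ on the gene's strand: Plekhh1, the gene that differed between the strains, and Aqp6 and Slc5a1, the transport genes, which share a motif. Capitals mark each E-box (CANNTG), the motif bound by basic helix-loop-helix factors.
Plekhh1, chr12:79028913-79029212, plus strand: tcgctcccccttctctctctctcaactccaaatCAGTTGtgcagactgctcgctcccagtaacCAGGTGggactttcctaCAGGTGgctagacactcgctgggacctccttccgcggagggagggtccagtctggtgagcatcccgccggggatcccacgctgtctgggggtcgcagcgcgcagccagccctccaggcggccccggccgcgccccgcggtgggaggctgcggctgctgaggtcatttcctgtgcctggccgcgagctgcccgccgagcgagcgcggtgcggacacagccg
Aqp6, chr15:99600950-99601249, plus strand: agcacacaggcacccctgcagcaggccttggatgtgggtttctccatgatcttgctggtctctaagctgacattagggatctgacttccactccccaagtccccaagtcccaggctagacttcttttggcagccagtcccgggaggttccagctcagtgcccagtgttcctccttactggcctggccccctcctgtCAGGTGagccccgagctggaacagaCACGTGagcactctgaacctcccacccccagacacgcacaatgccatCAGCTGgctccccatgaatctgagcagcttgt
Slc5a1, chr5:33103969-33104268, plus strand: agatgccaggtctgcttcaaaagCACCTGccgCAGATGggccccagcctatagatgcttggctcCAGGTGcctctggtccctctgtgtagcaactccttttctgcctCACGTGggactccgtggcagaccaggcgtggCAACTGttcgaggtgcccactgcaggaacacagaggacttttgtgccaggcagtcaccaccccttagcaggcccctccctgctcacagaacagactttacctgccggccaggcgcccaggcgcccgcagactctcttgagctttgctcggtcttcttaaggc

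An E-box stood in 4 of the 5 promoters, against 72.3% of all 32851 promoters of the same length. The palindromic form CACGTG, searched after the sequences had been seen, stood in those of Aqp6 and Slc5a1, against 7.15% of all promoters. It is itself an E-box and holds ACGTG (the core bound by hypoxia-inducible factors), which 2 of the 5 promoters and 19.6% of all promoters held. Among the other motifs searched on both strands, GGGCGG (bound by Sp1) was present in Rtn4r and Rgcc, against 35.7% of all promoters, and TGACG (part of the cAMP response element) in the same pair, against 20.8%. AGGTCA (part of the nuclear receptor element) was present in Plekhh1, against 16.3% of all promoters. Motifs absent from the 5 windows were AGATAA of GATA factors (11.2% of all promoters), CATTCC of TEAD factors (14.7%), TGANTCA of AP-1 (7.81%), GGAAAA of NFAT (23.4%), the TATA box TATAAA (13.6%) and CCGGAA of ETS factors (14.9%). The promoters also differed in base composition: G and C made up 58.7% of bases in Aqp6, 60.3% in Slc5a1, 66.7% in Rgcc, 69.0% in Plekhh1 and 78.0% in Rtn4r, above the 52.7% median of all promoters. Rtn4r held 47 CG dinucleotides, Plekhh1 27, Rgcc 26, Slc5a1 10 and Aqp6 4, and the median promoter held 7.

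In Balb/cJ hearts, each of the 6 genes was lower in every TAC library than in every sham library, a pattern that 18.1% of the 14038 genes tested showed. In Balb/cByJ hearts this held for 5 of the 6 genes, against 18.8% of all genes tested, and for the same 5 in both strains, against 8.28%. Rgcc was the exception: its Balb/cByJ groups overlapped, so the description of these genes as lower after TAC in both strains does not hold for Rgcc. Since the genes were picked on this contrast, nothing is read from these counts. The median log2 difference, TAC minus sham, was -1.94 in Balb/cJ and -1.45 in Balb/cByJ over the 6 genes, and 0.00 in both strains over all genes tested. In these bulk samples, fewer cells of a type and less RNA per cell cannot be told apart.

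**Figure D1:**
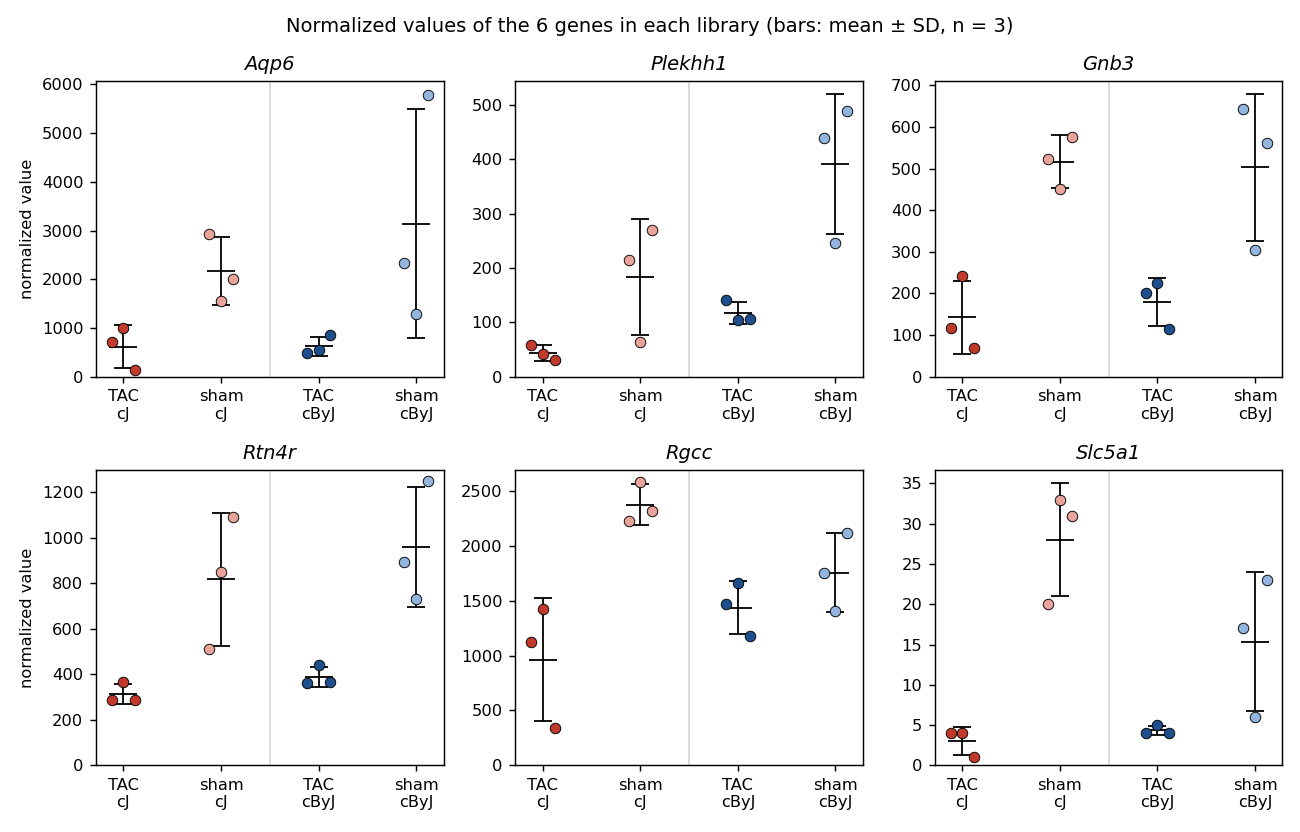
Normalized value of each of the 6 genes in each library (y axes), with TAC to the left of sham within each strain. Each point is 1 library, and group means are marked. Every TAC library of Balb/cJ lies below every sham library in all 6 panels, and the Balb/cByJ groups overlap only for Rgcc.

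Aqp6 lies at chr15:99601400-99605477 on the plus strand (mm10, 5 exons). Its normalized value was 722, 992 and 137 in TAC Balb/cJ libraries, against 2933, 1564 and 2015 in sham Balb/cJ libraries. In Balb/cByJ it was 481, 543 and 850 after TAC, against 2344, 1294 and 5787 after sham. No TAC library reached the lowest sham library of its strain, but libraries within a group differed several-fold, with TAC Balb/cJ 6 far below its group and sham Balb/cByJ 3 far above. The TAC mean was 28.4% of the sham mean in Balb/cJ and 19.9% in Balb/cByJ. On the log2 scale the differences were -2.18 ± 0.65 (SE) and -2.10 ± 0.65, which rank 35 and 4 among the falls of all genes tested. Without TAC Balb/cJ 6 the Balb/cJ difference was -1.31, and without the library labelled TAC Balb/cByJ 6 the Balb/cByJ difference was -2.34.

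Slc5a1 lies at chr5:33104219-33162699 on the plus strand (15 exons). Its values were 4, 4 and 1 in TAC Balb/cJ libraries, against 20, 33 and 31 in sham Balb/cJ libraries. They were 4, 5 and 4 in TAC Balb/cByJ libraries, against 17, 6 and 23 in sham Balb/cByJ libraries. The groups were far apart in Balb/cJ and nearly touched in Balb/cByJ, where sham library 2 stood 1 unit above the highest TAC library. The log2 differences were -2.95 ± 0.53 in Balb/cJ and -1.44 ± 0.53 in Balb/cByJ, and at such values they depend on the pseudocount: with 5 in place of 1 they were -2.05 and -1.02. Without the library labelled TAC Balb/cByJ 6 the Balb/cByJ difference was -1.40.

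Gnb3 lies at chr6:124834240-124840275 on the minus strand (10 exons). It had 117, 241 and 70 in TAC Balb/cJ libraries, against 523, 450 and 577 in sham Balb/cJ libraries, and 201, 225 and 115 in TAC Balb/cByJ libraries, against 643, 305 and 561 in sham Balb/cByJ libraries. The groups did not overlap in either strain, and the sham range of Balb/cByJ took in that of Balb/cJ. The log2 differences between the surgeries were -2.02 ± 0.40 in Balb/cJ and -1.46 ± 0.40 in Balb/cByJ, with TAC means at 27.6% and 35.9% of the sham means. Without the library labelled TAC Balb/cByJ 6, the lowest of its group, the Balb/cByJ difference was -1.17.

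Rtn4r lies at chr16:18127706-18152408 on the plus strand (2 exons). Its values were 286, 366 and 288 in TAC Balb/cJ libraries, against 511, 851 and 1092 in sham Balb/cJ libraries. In Balb/cByJ they were 361, 440 and 365 after TAC, against 894, 732 and 1249 after sham. The surgeries did not overlap in either strain, and TAC groups averaged 313 ± 45.6 in Balb/cJ and 389 ± 44.5 in Balb/cByJ (SD, n = 3 each). Its differences were nearly equal, -1.32 ± 0.25 in Balb/cJ and -1.27 ± 0.25 in Balb/cByJ on the log2 scale, the second being -1.23 without the library labelled TAC Balb/cByJ 6.

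Plekhh1 lies at chr12:79029163-79081655 on the plus strand (29 exons). It had 59, 41 and 31 in TAC Balb/cJ libraries, against 215, 64 and 270 in sham Balb/cJ libraries, and 141, 104 and 106 in TAC Balb/cByJ libraries, against 439, 246 and 489 in sham Balb/cByJ libraries. In Balb/cJ the groups were separated only by the gap between 59 and 64, since sham library 2 was much lower than the other sham libraries. The log2 differences were -1.85 ± 0.45 in Balb/cJ and -1.69 ± 0.45 in Balb/cByJ, and TAC means were 23.9% and 29.9% of sham means. Without the library labelled TAC Balb/cByJ 6 the Balb/cByJ difference was -1.62.

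Rgcc lies at chr14:79288750-79301635 on the minus strand (5 exons). It had 1124, 1423 and 339 in TAC Balb/cJ libraries, against 2226, 2580 and 2315 in sham Balb/cJ libraries. In Balb/cByJ it had 1473, 1659 and 1178 after TAC, against 1748, 1402 and 2115 after sham. The Balb/cJ groups were far apart, whereas 2 of the 3 TAC Balb/cByJ libraries exceeded the lowest sham library. The log2 difference was -1.54 ± 0.39 in Balb/cJ, and -0.90 without TAC Balb/cJ 6, the lowest library. In Balb/cByJ it was -0.28 ± 0.39, rank 2127 among the falls of all genes tested, and -0.15 without the library labelled TAC Balb/cByJ 6.

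Log2 fold changes in the authors' deposited table, shrunken by their method, had the same sign in every case. In that table they were -1.61 and -0.53 for Slc5a1, -1.45 and -1.13 for Gnb3, -1.40 and -1.39 for Plekhh1, -1.20 and -1.15 for Rtn4r, -0.74 and -0.83 for Aqp6, and -0.74 and -0.26 for Rgcc, with Balb/cJ first in each pair.

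**Figure D2:**
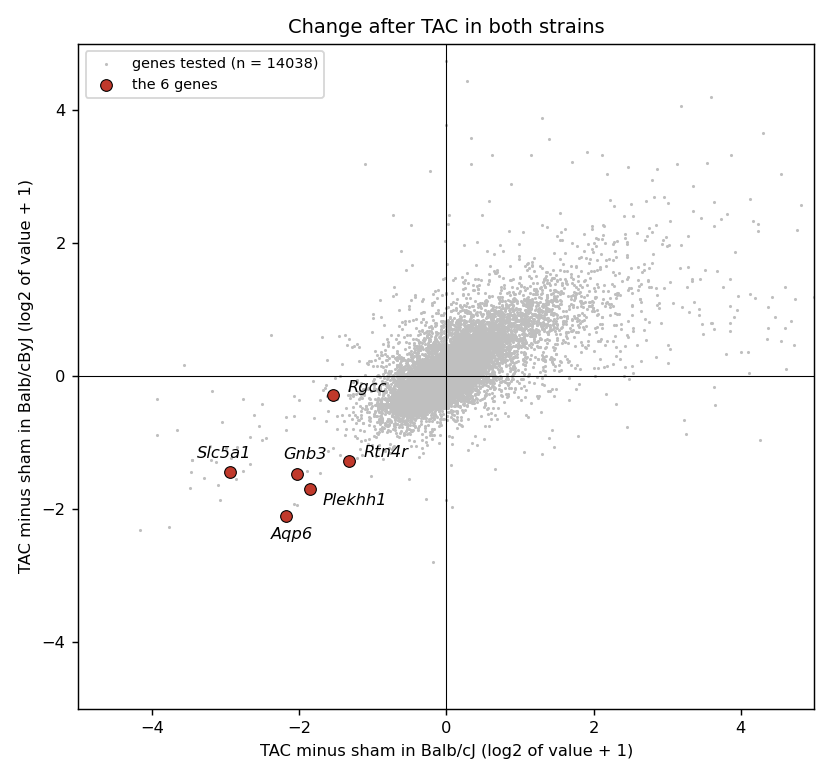
Difference of mean log2(value + 1), TAC minus sham, in Balb/cJ (x axis) and Balb/cByJ (y axis) for all 14038 genes tested (grey points) and the 6 chosen genes (labelled), with 14 genes outside the plotted range. For 5 of the chosen genes the points lie in the lower left, with both differences at -1.27 or lower, and Rgcc lies near 0 on the Balb/cByJ axis.

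The genes differed widely in level. Per kilobase of the deposited gene length, the mean over the 12 libraries was 1785 for Rgcc, 795 for Aqp6, 331 for Rtn4r, 182 for Gnb3, 28.5 for Plekhh1 and 3.22 for Slc5a1. Rgcc thus stood above 92.9% of the genes tested, and Slc5a1 above 1.23%. The order is of means over libraries in which Aqp6 alone ran from 137 to 5787 normalized values, so single libraries can depart from it.

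Libraries that were low for one of the genes were often low for others. Sham Balb/cByJ 2 was the lowest of its group for all 6 genes, and sham Balb/cByJ 3 was the highest for each except Gnb3. TAC Balb/cJ 6 was the lowest of its group for each gene except Rtn4r, with Aqp6 at -1.75 and Rgcc at -1.26 from the group mean on the log2 scale. Atrial genes moved with the libraries too. The mean log2 level of Myl7, Sln and Myl4, which atrial muscle makes, was 10.92, 13.45 and 12.78 in TAC Balb/cJ libraries, against 3.68, 4.62 and 3.55 in sham Balb/cJ libraries. In TAC Balb/cByJ libraries it was 9.23, 14.69 and 13.39, against 11.88, 13.74 and 7.65 in sham Balb/cByJ libraries. The atrial level thus separated the surgeries in Balb/cJ and overlapped in Balb/cByJ, where sham library 3 had the lowest atrial level and, for 5 of the genes, the highest value of its group. Both TAC groups went the other way: library 5 had the highest atrial level and the highest value of its group for Gnb3, Rtn4r and Rgcc, among others.

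With that atrial level as a covariate of the fit, the TAC differences of the 6 genes kept their negative sign in both strains. For Rgcc in Balb/cByJ, where the groups overlapped, that sign says little. Since the genes were picked on this contrast, the sign is a description only. Plekhh1 was then at -0.52 in Balb/cJ and -1.47 in Balb/cByJ, Aqp6 at -0.82 and -1.88, and Slc5a1 at -1.94 and -1.28, all TAC minus sham. In Balb/cJ the covariate runs nearly along the surgery, so the 2 cannot be told apart there.

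**Figure D3:**
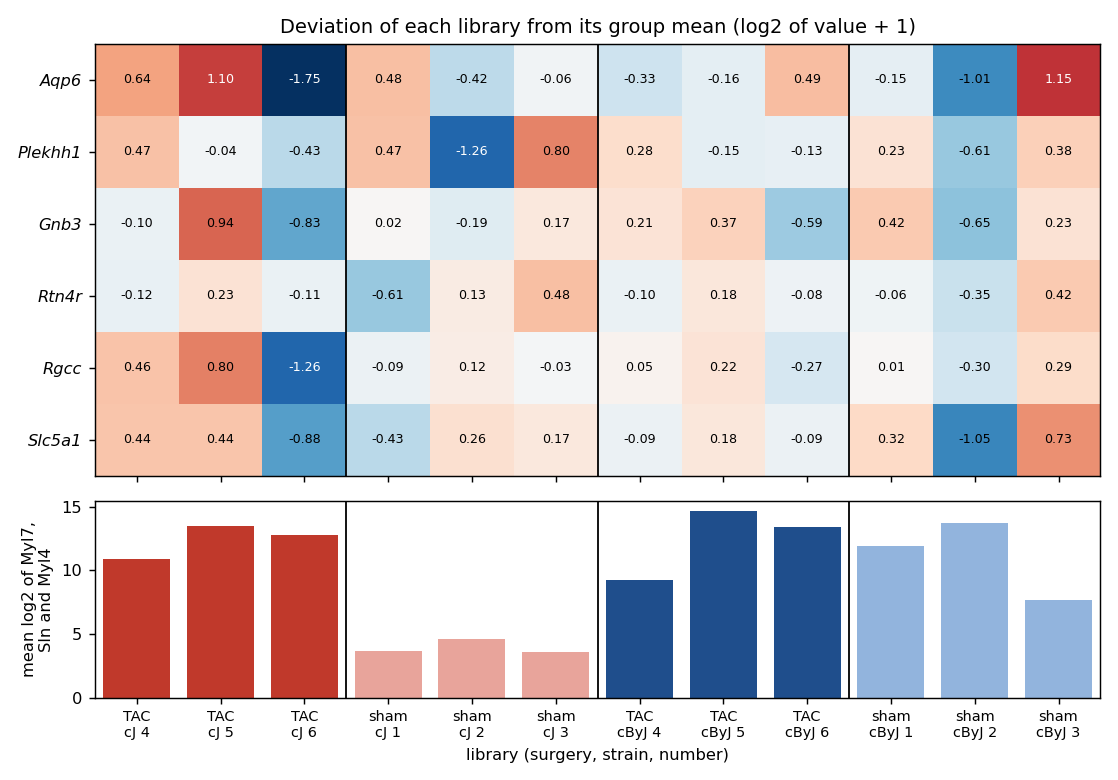
Upper panel, deviation of each library from the mean of its group for the 6 genes, in log2(value + 1), with blue below and red above the mean. Lower panel, mean log2 level of the atrial genes Myl7, Sln and Myl4 in the same libraries, which is 3.55 to 4.62 in sham Balb/cJ and at least 7.65 elsewhere.

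Markers of heart cell types were counted by the same threshold, which 15.3% of all genes tested passed as higher and 16.2% as lower after TAC in Balb/cJ, and 7.81% and 4.76% in Balb/cByJ. How the counts moved when a library was left out was worked out after the values had been seen. Capillary endothelial markers other than Rgcc fell after TAC in Balb/cJ for 5 of 6 genes (limma, adjusted p under 0.1), with summed levels of 39222 to 65424 in TAC and 76159 to 89494 in sham libraries. In Balb/cByJ none of the 6 passed in limma (1 did without TAC Balb/cJ 6), 1 had an unadjusted p under 0.05 and 1 passed in the authors' deposited table, with sums of 60946 to 69940 in TAC and 73640 to 89090 in sham libraries. Endocardial markers went the other way, rising for 3 of 4 genes in Balb/cJ (1 without sham Balb/cJ 2). Their sums were 2551 to 4202 in TAC and 1301 to 2671 in sham Balb/cJ libraries. In Balb/cByJ 0 of 4 passed, with sums of 3907 to 4838 in TAC and 2646 to 4209 in sham libraries. General endothelial markers fell for 9 of 12 genes in Balb/cJ (5 without sham Balb/cJ 2), with sums of 24585 to 26454 in TAC and 27962 to 41787 in sham libraries. In Balb/cByJ 0 of 12 passed in limma, at an unadjusted p under 0.05 or in the authors' deposited table, and sums were 28415 to 29937 after TAC and 28416 to 31079 after sham. Rgcc, itself a capillary marker, was likewise far lower after TAC in Balb/cJ and overlapped in Balb/cByJ; the part of endothelial content in its values was not tested.

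Atrial markers, which include Nppa beside Myl7, Sln and Myl4, rose for 6 of 7 genes in Balb/cJ, with sums of 42454 to 155331 in TAC and 9271 to 19566 in sham libraries. The sums did not follow the atrial level above, so they are not read as the amount of atrial muscle. Sham Balb/cByJ 3 had a sum of 6075, below every sham Balb/cJ library, at an atrial level of 7.65 against 3.55 to 4.62. In Balb/cByJ 0 of 7 passed in limma (2 without sham library 2) and in the authors' deposited table, 1 had an unadjusted p under 0.05, and sums were 24507 to 237305 in TAC and 6075 to 115067 in sham libraries. Fibroblast markers rose for 6 of 7 genes in each strain, and macrophage markers for 8 of 8 in Balb/cJ and 7 of 8 in Balb/cByJ. The Balb/cByJ counts were 0 for both without sham library 1, where 0.0427% of all genes passed in either direction, and 1 for each without sham library 3, where 0.533% passed. Adipocyte markers rose for 5 of 5 genes in Balb/cJ, with sums of 320 to 1803 in TAC and 12 to 27 in sham libraries. They rose for 3 of 5 in Balb/cByJ, with sums of 295 to 2653 in TAC and 8 to 301 in sham libraries, and for 0 without sham library 1, sham library 3, TAC library 5 or TAC library 6. Epicardial markers rose for 4 of 5 genes in Balb/cJ, with sums of 306 to 746 in TAC and 155 to 211 in sham libraries. In Balb/cByJ 0 of 5 passed in limma, 1 had an unadjusted p under 0.05 and 3 passed in the authors' deposited table. The Balb/cByJ sums were 463 to 917 in TAC and 317 to 402 in sham libraries. Ventricular muscle markers fell for 3 of 8 genes in Balb/cJ, and for 0 without sham library 2, sham library 3 or TAC library 6. In Balb/cByJ 0 of 8 passed in limma or at an unadjusted p under 0.05, and 4 passed in the authors' deposited table. With the atrial level as a covariate, no marker and none of the 14038 genes tested passed in Balb/cJ. The part of cell makeup in the values of the 6 genes was not tested.

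Markers of the cells outside the heart that are best known for these genes were mostly at or near 0. Among renal intercalated markers, Atp6v1b1 and Foxi1 were at 0 in every library and Slc26a4 never exceeded 10. Atp6v0d2, which other cells also make, was at 15 to 319 in TAC Balb/cByJ and 61 to 161 in sham Balb/cByJ libraries, and at 2 to 7 in TAC Balb/cJ and 2 to 4 in sham Balb/cJ libraries. Among enterocyte markers, Sis and Fabp2 were at 0 and Lct and Alpi never exceeded 10, while Vil1 was at 17 to 52 over all libraries. Among cone markers, Arr3, Gnat2, Opn1sw and Pde6h never exceeded 10. Cngb3, a cone channel subunit, was at 23 to 67 in TAC Balb/cJ and 87 to 124 in sham Balb/cJ libraries, a fall of 1.23 ± 0.41 in log2 units (limma, adjusted p = 0.0528), and at 43 to 127 in TAC Balb/cByJ and 78 to 94 in sham Balb/cByJ libraries. Among Balb/cJ libraries, leaving out sham library 2 (-1.26) or 3 (-1.09) or TAC library 6 (-0.80) ended that call. Cngb3 thus was lower after TAC in Balb/cJ beside Gnb3, and its part in the values of Gnb3 was not tested.

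The strains were then compared, a contrast that was not used to choose the genes. Over the mean of both surgeries, Plekhh1 was higher in Balb/cByJ than in Balb/cJ by 1.35 ± 0.32 on the log2 scale, a 2.55-fold difference (limma, adjusted p = 0.0299). It was the 1 gene of the 6 that passed, whereas 11.9% of all genes tested passed, 5.98% with the higher level in Balb/cByJ. Without the library labelled TAC Balb/cByJ 6 the difference was 1.38 (limma, adjusted p = 0.0416). The level of Plekhh1 in that library, 106, was close to those of the other TAC Balb/cByJ libraries, 141 and 104, and above the 31 to 59 of TAC Balb/cJ.

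After TAC, every library labelled Balb/cByJ was above every Balb/cJ library for Plekhh1, as for 6.91% of genes tested. With the library labelled TAC Balb/cByJ 6 counted as Balb/cJ, the groups would overlap, since its 106 exceeds the 104 of TAC Balb/cByJ 5. The difference by label was 1.44 ± 0.45 (limma, adjusted p = 0.324), or 1.50 without the library labelled TAC Balb/cByJ 6 (limma, adjusted p = 0.367). None of the 6 genes passed there in limma, Plekhh1 had an unadjusted p under 0.05 (as did 9.77% of all genes tested), and 0.00712% of all genes tested, a single gene, passed. That background moved with single libraries, to 75 genes (0.535%) without the library labelled TAC Balb/cByJ 6, 61 (0.434%) without TAC Balb/cJ 4, 24 (0.171%) without TAC Balb/cByJ 4 and 3 genes without sham Balb/cJ 2 or sham Balb/cByJ 2. It was 0 genes when any other library was left out, and in no case did one of the 6 genes pass. After sham the Plekhh1 groups overlapped, with 439, 246 and 489 in Balb/cByJ and 215, 64 and 270 in Balb/cJ, and the difference was 1.27 ± 0.45 (limma, adjusted p = 0.128). None of the 6 genes passed there in limma, again with Plekhh1 at an unadjusted p under 0.05 (as were 21.9% of all genes tested), and 8.37% of all genes tested passed. The sham value rested in part on sham Balb/cJ 2 and 3: it was 0.64 without library 2 and 1.67 without library 3, where it passed (limma, adjusted p = 0.0832). These contrasts share their libraries with the differences that chose the genes.

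The other genes showed no strain difference past the threshold over the mean of both surgeries. The log2 differences, Balb/cByJ minus Balb/cJ, were 0.35 ± 0.46 for Aqp6, 0.29 ± 0.18 for Rtn4r, 0.18 ± 0.28 for Gnb3, 0.17 ± 0.28 for Rgcc and -0.22 ± 0.37 for Slc5a1 (limma, adjusted p between 0.356 and 0.765). Without the library labelled TAC Balb/cByJ 6 they were 0.23 for Aqp6, 0.31 for Rtn4r, 0.33 for Gnb3, 0.24 for Rgcc and -0.20 for Slc5a1. Without TAC Balb/cJ 6 the sign turned for Aqp6 (-0.09), Gnb3 (-0.03) and Rgcc (-0.14), and Slc5a1 was -0.44. With all libraries, Rgcc and Slc5a1 had differences of opposite sign after TAC and after sham. Rgcc was 0.80 ± 0.39 after TAC (limma, adjusted p = 0.536) and -0.45 ± 0.39 after sham (limma, adjusted p = 0.533), where every Balb/cByJ library was below every Balb/cJ library; 27.2% of genes tested had sham groups that did not overlap. Slc5a1 was 0.53 ± 0.53 after TAC (limma, adjusted p = 0.800), where its values were only 1 to 5, and -0.97 ± 0.53 after sham (limma, adjusted p = 0.307). The values after TAC rested on TAC Balb/cJ 6, without which they were 0.17 for Rgcc and 0.09 for Slc5a1, and without the library labelled TAC Balb/cByJ 6 they were 0.94 and 0.57. These differences correspond to TAC effects that were smaller in Balb/cByJ by 1.25 ± 0.55 for Rgcc and 1.50 ± 0.75 for Slc5a1 on the log2 scale, which are not tested because the TAC effects chose the genes.

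**Figure D4:**
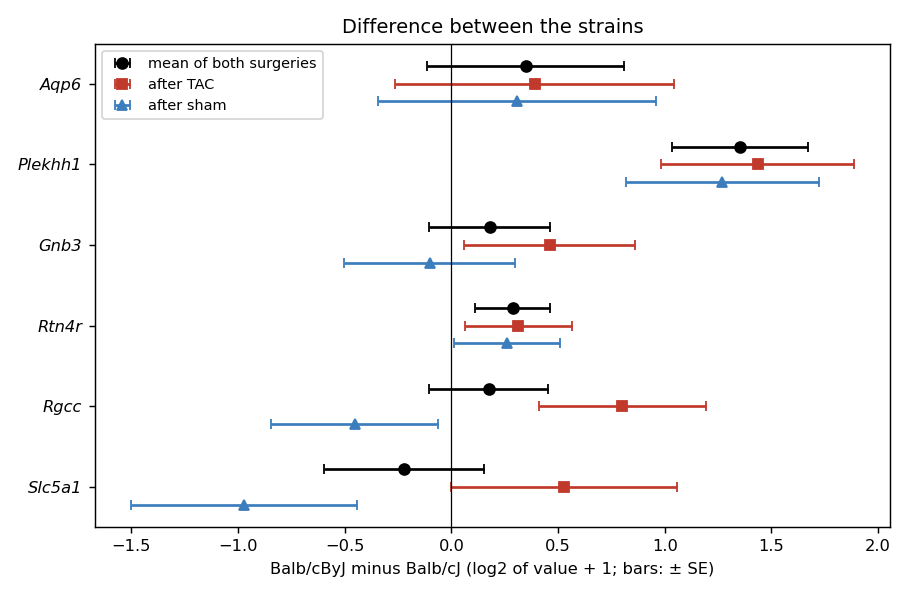
Difference between the strains, Balb/cByJ minus Balb/cJ, in log2(value + 1) (x axis) for each of the 6 genes, over the mean of both surgeries, after TAC and after sham, with bars of ± SE. Plekhh1 lies at 1.27 to 1.44 in all 3 comparisons, and Rgcc and Slc5a1 lie on opposite sides of 0 after TAC and after sham.

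Relatives and partners of the 6 genes were examined to see whether their families moved with them. Of 78 listed genes, 52 were expressed highly enough to be tested. In Balb/cJ, 13 rose and 8 fell after TAC (limma, adjusted p under 0.1), against 15.3% and 16.2% of all genes tested. In Balb/cByJ, 5 rose and 2 fell, against 7.81% and 4.76% of all genes tested. None of the 52 passed a test of the difference in response between the strains (limma, strain by surgery interaction), and 6 had an unadjusted p under 0.05. Of all 14038 genes tested, 1 passed (0.00712%) and 954 had an unadjusted p under 0.05, so the lack of calls is not particular to the relatives. With the atrial level as a covariate, 0 of the 52 rose and 0 fell in Balb/cJ, as was so for all 14038 genes tested. Without TAC Balb/cJ 6 the Balb/cJ counts were 8 and 4, and without sham Balb/cJ 2 the falls numbered 5, in fits where 15.3% and 15.6% of all genes passed in either direction, against 31.5% with all libraries. In Balb/cByJ the number that rose was 0 without sham library 1 or 3, 11 without sham library 2, 3 without TAC library 4, and 1 without TAC library 5 or 6. The share of all genes that passed in either direction moved alongside: it was 12.6% with all libraries, 0.0427% without sham library 1, 0.533% without sham library 3, 16.6% without sham library 2, 3.69% without TAC library 4, 3.71% without TAC library 5 and 4.91% without TAC library 6. Through the shared spread, 3 relatives rose without TAC Balb/cJ 5 (9.29% of all genes passed) and 13 without TAC Balb/cJ 6 (20.0%). The number that fell in Balb/cByJ was 0 without sham library 1, sham library 3 or TAC library 4, 1 without TAC library 5 and 4 without TAC Balb/cJ 6.

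Among 5 other aquaporins tested, 2 fell and 1 rose after TAC in Balb/cJ. Aqp1, the water channel of capillary endothelium, fell by 0.92 ± 0.23 in log2 units (limma, adjusted p = 0.0201), and Aqp7, which carries glycerol, fell by 0.97 ± 0.26 (limma, adjusted p = 0.0263), a call lost without TAC Balb/cJ 6 (-0.72). Aqp4, a water channel of muscle and glia, averaged 171 in TAC Balb/cJ and 30.7 in sham Balb/cJ libraries, a rise of 2.31 ± 0.38 (limma, adjusted p = 0.00511). In Balb/cByJ Aqp4 averaged 213 after TAC and 286 after sham, a difference of -0.41 ± 0.38 (limma, adjusted p = 0.504), so sham Balb/cJ was lower than every other group. None of the 5 passed there in limma, at an unadjusted p under 0.05 or in the authors' deposited table. Aqp5, the neighbour of Aqp6 on chromosome 15, never exceeded 3. Other aquaporins thus lay on both sides of 0 in Balb/cJ, and their median was -0.64.

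Among sugar carriers, the insulin-responsive Slc2a4 (GLUT4) fell by 0.57 ± 0.15 in Balb/cJ (limma, adjusted p = 0.0213) and was -0.34 in Balb/cByJ (limma, adjusted p = 0.163). Slc2a10 rose in Balb/cJ by 1.25 ± 0.27 (limma, adjusted p = 0.0113), and so did Slc2a13, by 1.55 ± 0.40 (limma, adjusted p = 0.0218). Slc2a3 (GLUT3) rose in Balb/cByJ by 1.08 ± 0.26 (limma, adjusted p = 0.0453), a call lost without sham library 1 or 3 (1.00 in each), TAC library 5 (0.88) or TAC library 6 (1.00). Slc2a12 (GLUT12), named here after its values were seen, was the carrier that fell in Balb/cByJ, by 0.65 (limma, adjusted p = 0.0744), a call lost without sham library 1 (-0.66), sham library 3 (-0.53) or TAC library 4 (-0.54), 5 (-0.67) or 6 (-0.73) and after rescaling to equal totals (-0.49). Of the sodium-coupled family of Slc5a1, the myo-inositol carrier Slc5a3 rose in Balb/cJ by 1.49 ± 0.33 (limma, adjusted p = 0.0125). Slc5a6, the vitamin carrier, was just past the threshold in Balb/cJ at -0.45 ± 0.18 (limma, adjusted p = 0.0974), a call lost without any of 7 libraries. Slc5a2 (SGLT2), the renal glucose carrier, never exceeded 2.

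None of the 4 other G protein beta subunits tested passed in either strain in limma, at an unadjusted p under 0.05 or in the authors' deposited table. In Balb/cJ, Gnb1 was 0.16 ± 0.08, Gnb2 -0.13 ± 0.09, Gnb4 0.35 ± 0.16 and Gnb5 -0.14 ± 0.11. Leaving out 1 library brought 3 of these past the threshold: Gnb1 at 0.22 without TAC Balb/cJ 4, and Gnb4 at 0.55 and Gnb5 at -0.26 without sham Balb/cJ 1. Among 8 gamma subunits, the partners of the beta subunits, Gng2 rose in Balb/cJ by 1.22 ± 0.36 (limma, adjusted p = 0.0353). The call was lost without sham Balb/cJ 3 (1.01) or TAC Balb/cJ 6 (1.10), and with the atrial covariate the sign turned. Gng5 was lower after TAC in Balb/cJ, at -0.36 ± 0.14 (limma, adjusted p = 0.0750). The Gng5 call was lost without sham Balb/cJ 2 (-0.25) or 3 (-0.34) or TAC Balb/cJ 5 (-0.40) or 6 (-0.26), and after rescaling to equal totals (-0.15).

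Of the 9 tested genes on the list of Nogo receptors, ligands and co-receptors, which includes the receptor paralogues Rtn4rl1 and Rtn4rl2, 3 rose in each strain and 0 fell, with a median of 0.65 in Balb/cJ and 0.82 in Balb/cByJ on the log2 scale. They were Rtn4, Lingo1 and S1pr2 in Balb/cJ, and Rtn4, Pirb and Ngfr in Balb/cByJ. The S1pr2 call was lost without sham library 2 (1.11), sham library 3 (0.94) or TAC library 6 (0.69) of Balb/cJ. Without sham library 1 or 3 of Balb/cByJ, among others, neither Pirb nor Ngfr passed. Rtn4, which encodes the ligand Nogo, rose by 1.25 ± 0.25 in Balb/cJ (limma, adjusted p = 0.00873) and by 0.84 ± 0.25 in Balb/cByJ (limma, adjusted p = 0.0690). The Balb/cByJ call was lost without sham library 1 (0.86), sham library 3 (0.77), TAC library 4 (0.70) or TAC library 5 (0.76). Lingo1, a co-receptor, rose in Balb/cJ by 1.98 ± 0.61 (limma, adjusted p = 0.0400), a call lost without sham library 2 (1.59) or TAC library 6 (1.82), and its sign turned with the atrial covariate. The ligand and its receptor, the latter chosen for its fall, thus lay in opposite directions after TAC in both strains.

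Of the proteins built like Plekhh1, its closest relative Plekhh2 was 0.00 ± 0.26 in Balb/cJ (limma, adjusted p = 0.995) and 0.75 ± 0.26 in Balb/cByJ, just short of the threshold. Myo7a, an unconventional myosin, rose in Balb/cJ by 1.15 ± 0.23 (limma, adjusted p = 0.00955), and Myo10, the filopodial myosin, fell by 0.72 ± 0.18 (limma, adjusted p = 0.0193).

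Of the partners of Rgcc, Cdk1, the mitotic kinase it binds, rose in Balb/cJ by 2.78 ± 0.46 (limma, adjusted p = 0.00517) and Plk1, another mitotic kinase, by 2.24 ± 0.49 (limma, adjusted p = 0.0126). In Balb/cByJ the differences were 1.34 ± 0.46 for Cdk1 (limma, adjusted p = 0.101) and 1.09 for Plk1 (limma, adjusted p = 0.181). Vegfa, the endothelial growth factor, fell in both strains, by 0.55 ± 0.14 in Balb/cJ (limma, adjusted p = 0.0191) and by 0.58 ± 0.14 in Balb/cByJ (limma, adjusted p = 0.0432). The Balb/cByJ call was lost without sham library 1 (-0.41), sham library 3 (-0.62) or TAC library 4 (-0.56). Pparg, also on this list, fell in Balb/cJ by 0.73 ± 0.20 (limma, adjusted p = 0.0271), a call lost without sham library 2 (-0.64) or TAC library 6 (-0.52). Among the 10 genes of the list, all tested, 4 rose and 2 fell in Balb/cJ, and 1 rose and 1 fell in Balb/cByJ. Rgcc, chosen for its fall, was lower in the TAC Balb/cJ libraries while the kinase it binds was higher.

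**Figure D5:**
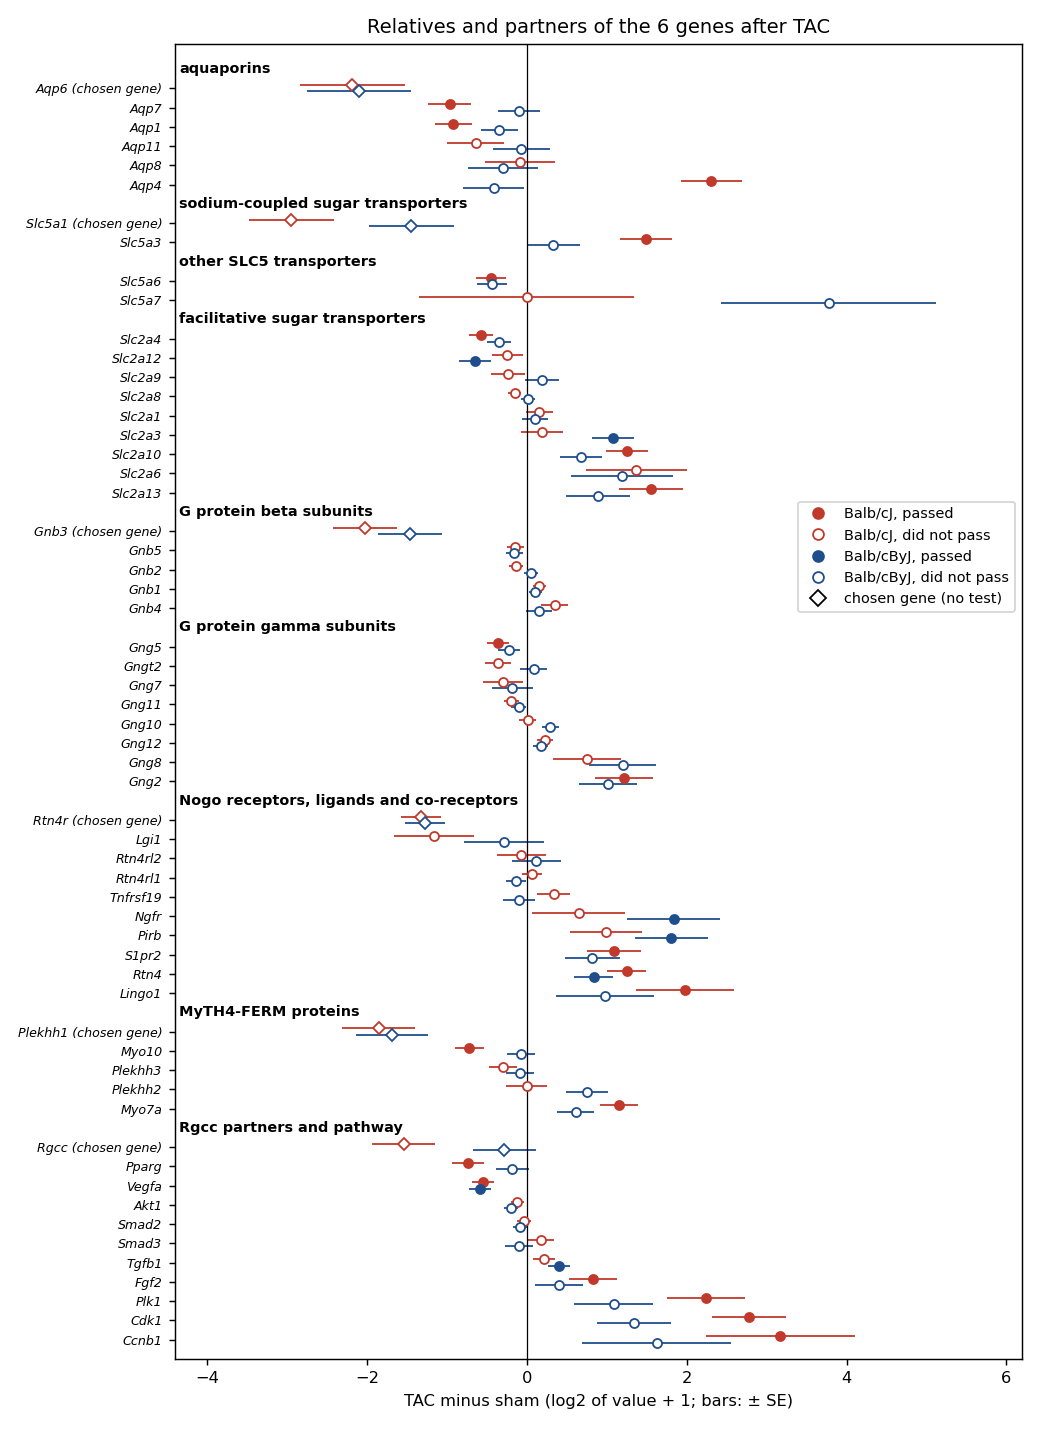
Difference of mean log2(value + 1), TAC minus sham, with bars of ± SE (x axis) for the tested relatives and partners of the 6 genes in Balb/cJ (red) and Balb/cByJ (blue), with filled points for genes past the threshold and diamonds for the chosen genes, which are not tested. In Balb/cJ each chosen gene lies to the left of the tested genes of its list, but the 6 were chosen for a fall, so nothing is read from this. In Balb/cByJ Rgcc (-0.28) lies to the right of Vegfa (-0.58). The other beta subunits lie close to 0.

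The genes next to the 6 on the chromosomes were checked because reads of overlapping genes may be shared. Of 14 neighbours in the table, 10 were tested, and in Balb/cJ 5 rose and 1 fell after TAC, against 31.5% of all genes tested in either direction. In Balb/cByJ 1 rose and 0 fell, against 12.6% in either direction. Pigh overlaps Plekhh1 by 987 bases on the opposite strand. It had 55 to 102 in the libraries and passed neither between the surgeries nor between the strains, where it was -0.03 (limma, adjusted p = 0.919). Cdca3, a cell division gene, lies 538 bases before Gnb3 on the opposite strand and rose in Balb/cJ by 2.22 ± 0.40 (limma, adjusted p = 0.00648). P3h3, which modifies collagen and lies 819 bases beyond the other end of Gnb3, rose by 0.75 ± 0.17 in Balb/cJ (limma, adjusted p = 0.0124) and by 0.79 ± 0.17 in Balb/cByJ (limma, adjusted p = 0.0327). The Balb/cByJ call was lost without sham library 1 (0.73) or 3 (0.77). Gnb3 was therefore low after TAC between neighbours that were higher in Balb/cJ. Prodh, a proline-degrading enzyme 38515 bases from Rtn4r, was the neighbour that fell, by 1.04 ± 0.19 in Balb/cJ (limma, adjusted p = 0.00720).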

How the data were processed

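Heart RNA from 12 libraries was made into stranded mRNA libraries, per the labels' protocols. STAR, Subread, featureCounts and DESeq2 with build mm10 are named in the submitters' processing notes; versions, strand setting and gene annotation were not given in the sources used here, so overlapping genes may share reads. The deposited table gives a score per gene and library, which its values show to be counts divided by a size factor by the authors and rounded; a count model was therefore not used. It also holds the authors' log2 fold changes (shrunken, per the file headers), their adjusted p-values (10% false discovery rate) and gene lengths. Of the entries, 847 carry no symbol.

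TAC columns are numbered 4 to 6, unlike the TAC titles, and were assigned by strain and surgery only; sham columns carry numbers 1 to 3. Labels do not tie libraries to animals, so p-values reflect library spread, which may be technical. Values were taken as log2(value + 1), which understates changes of low genes, for the 14038 genes of 20278 above 0 whose mean over all libraries was at least 10. All 6 chosen genes passed this filter. Slc5a1 did so only through its sham groups, with means of 28.0 in Balb/cJ and 15.3 in Balb/cByJ, against 3.00 and 4.33 in the TAC groups. One mean per group was fitted with limma 3.58.1 (eBayes with trend) in R 4.3.3, and the threshold was an adjusted p under 0.1 (Benjamini-Hochberg over all genes tested). The fit was checked on simulated data.

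The 6 genes and the lists of relatives and markers were chosen with earlier results of these data known. Named genes were the 6, up to 4 relatives per list by smallest p over both TAC contrasts, nearest or overlapping genes, cell markers and the 3 genes most alike over the libraries. Alternatives were the filter, the pseudocount, the scaling, the groups fitted, left-out libraries, a replicate block, an atrial covariate, a stricter threshold and the authors' table. Motifs and figures used Python 3.11.15 with pandas 2.3.3, numpy 2.4.6 and matplotlib 3.10.9.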

Additional observations from a re-analysis of the deposited data

How the results depend on the processing

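The counts of chosen genes with every TAC library below every sham library stayed within 1.5 times the reported 6 (Balb/cJ) and 5 (Balb/cByJ) under each alternative run; when libraries were left out they ran from 6 to 6 and from 5 to 6. Plekhh1 passed over the mean of both surgeries in every alternative, with differences of 1.04 to 1.92. After sham, the chosen genes passing (0) numbered 0 to 1 when a library was left out and 1 with the replicate block; after TAC they numbered 0 throughout. The relatives' counts depended on the processing. In Balb/cJ the 13 that rose ranged from 8 to 15 and the 8 that fell from 4 to 11 without 1 library, and both were 0 with the atrial covariate. In Balb/cByJ the 5 that rose ranged from 0 to 13 without 1 library and were 3 with no filter, 8 with a pseudocount of 5, 11 after rescaling to equal totals, 8 with only the groups compared, 2 with the atrial covariate, 1 at an adjusted p under 0.05 and 9 in the authors' deposited table. The 2 that fell ranged from 0 to 4 and were 1 after rescaling, with the atrial covariate and at 0.05. Gng2 and Lingo1 turned to -0.52 and -0.71 in Balb/cJ with the atrial covariate. The cause was not tested in any of these. Rescaling to equal totals moved the median of all genes by 0.21 (Balb/cJ) and 0.16 (Balb/cByJ) on the log2 scale. The TAC differences of the chosen genes stayed negative, though Rgcc was only -0.12 in Balb/cByJ. No paired analysis was possible because TAC and sham columns share no replicate numbers. For the strain contrasts, same-numbered libraries did not deviate together (r of -0.21, -0.07 and 0.17 in sham and 0.06, 0.10 and -0.05 in TAC), and the replicate block gave 1265 calls over the mean of both surgeries, against 1671. With 3 libraries per group and values of 1 to 33, Slc5a1 is the least certain of the 6.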

Other observations

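Over the 12 libraries, the gene most like Slc5a1 was Asb10 (Pearson r of log2 values 0.977), followed by Cyhr1 (0.977) and Ckm (0.970), the muscle creatine kinase. Rtn4r was most like Fblim1 (0.972), Lyrm9 and Pacsin2 (both 0.966), and Rgcc most like Mapk1ip1 (0.969), Sesn1 (0.960) and Gpt2 (0.958). Gnb3 was nearest to Cr1l (0.951), Mrpl3 (0.949) and Clpb (0.944), Aqp6 to Stom (0.945), Gid4 (0.940) and Etohd2 (0.940), and Plekhh1 to D2hgdh (0.940), Asb15 (0.938) and Cdnf (0.937). These are the highest of 11413 genes searched, and the libraries share surgery, strain and depth, so the values are a description only. No gene was named by more than 1 of the 6.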
